A study of Mus musculus with 5 samples.

Results

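The genes described here are 9 markers of lymphatic endothelium, Prox1, Lyve1, Mmrn1, Flt4, Pdpn, Reln, Ccl21a, Adgrg3 and Fgl2, followed through single-cell RNA libraries of the adult mouse heart. They were given as a fixed list, and they are 9 of the 17902 genes listed in at least 1 of the 5 libraries. All 9 were listed in each library. Their levels were read in 4 classes of cell. Lymphatic cells were those with at least 2 of Prox1, Mmrn1, Flt4 and Reln detected together with Cdh5 or Pecam1, the cadherin and adhesion molecule of endothelial junctions. The remaining cells were divided by markers into other endothelial cells, fibroblasts and macrophages. The rule found 539 lymphatic cells among 10961 cells (4.92%), beside 4379 other endothelial cells, 1067 fibroblasts and 4014 macrophages. A further 262 cells met more than 1 marker rule and 700 met none, and both sets were kept out of the comparisons.

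Cardiac interstitial cells, the non-muscle cells of the heart, were released from adult mouse hearts with collagenase II, freed of cardiomyocytes and sorted on surface cKit and DDR2. cKit is a receptor tyrosine kinase and DDR2 a collagen receptor of fibroblasts, and CD45, the common leukocyte antigen, divided the double-positive cells. A single library stood for each of 3 sorts: DDR2-positive cells without cKit (cKit-/DDR2+), double-positive cells without CD45 (cKit+/DDR2+/CD45-) and those with it (cKit+/DDR2+/CD45+). The sort on cKit alone, cKit+/DDR2-, had replicates 1 and 2. Strain, sex, age beyond adult, genotype and the number of hearts in a library are not given in the sources used here. With 1 library in 3 of the 4 groups, no test between groups was made. Tests compare cell classes within libraries, and their p-values measure the spread between libraries, which may be technical.

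Lymphatic capillaries take up fluid and immune cells from tissue, and in the heart they run through the outer wall. The homeobox factor PROX1 sets and keeps lymphatic identity. VEGFR-3, the product of Flt4, is the receptor through which VEGF-C drives lymphatic growth. LYVE1 is a hyaluronan receptor that tissue-resident macrophages carry too. Podoplanin (Pdpn) is a membrane glycoprotein that binds the platelet receptor CLEC-2 and is also made by stromal cells. CCL21 draws CCR7-bearing dendritic and T cells into lymphatics. Multimerin 1 (Mmrn1) and reelin (Reln) are secreted matrix glycoproteins, Adgrg3 encodes an adhesion G protein-coupled receptor, and Fgl2 encodes a fibrinogen-like protein found on and released by immune cells.

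The libraries held 436 to 3898 cells and 4047326 to 44847778 UMIs (unique molecular identifiers, 1 per captured transcript), with median UMIs per cell between 7529 and 10972. Xist was high in cKit+/DDR2- replicate 2 and cKit+/DDR2+/CD45- and not in the other 3 libraries. Replicate 1 and the cKit+/DDR2+/CD45+ library shared 190 cell barcodes, which is 43.6% of the former's cells and 4.87% of the latter's. The shared barcodes had a median of 12133.5 UMIs in replicate 1 and 622.5 in cKit+/DDR2+/CD45+. A median of 99.2% of the genes of such a cKit+/DDR2+/CD45+ cell were also detected in the replicate 1 cell of the same barcode, against 69.7% in another replicate 1 cell. Of the 21 lymphatic cells of cKit+/DDR2+/CD45+, 6 were shared cells, and all 6 had a lymphatic cell as their partner. A further 10 of the 21 met the macrophage rule as well, which left 5. Levels of the whole lymphatic class in this library are therefore given with and, in parentheses, without the shared cells. Of its 158 other endothelial cells, 61 were shared cells. All other levels of this library by cell class include the shared cells unless a value without them follows in parentheses.

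Ccl21a has near-identical copies in the mouse genome, and the letters in which they differ show where reads of the copies can be told apart. In the GRCm38 (mm10) assembly Ccl21a lies on chromosome 4 at 42772860-42773993 on the minus strand, and its copy Gm21541 at 41903610-41904743 on the plus strand. Their transcripts are both 870 bases long and differ at 6 positions (99.3% identical). The longest stretch without a difference is 370 bases, and 14 bases follow the last difference. The differences are written with the Ccl21a base first, then the position counted from 1 at the transcript's 5′ end, then the base of Gm21541: G24A, T159A, C269T, C640T, T812C and G856A. The windows around the 4 differences C269T, C640T, T812C and G856A, with the differing base in capitals, are
Ccl21a, C269T: atcctgttctCaccccggaag
Gm21541, C269T: atcctgttctTaccccggaag
Ccl21a, C640T: cttcaaccatCacatctgcac
Gm21541, C640T: cttcaaccatTacatctgcac
Ccl21a, T812C: atggcgccctTcccttgtcct
Gm21541, T812C: atggcgccctCcccttgtcct
Ccl21a, G856A: tgaataaaaaGgtgatccagc
Gm21541, G856A: tgaataaaaaAgtgatccagc

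Over all libraries 95817 UMIs were counted for Ccl21a, 86 for Gm21541 and 7 for Ccl21c. Of those of Gm21541, 85 were in lymphatic cells. The copies Ccl21b, Gm13304 and Gm10591, with transcripts of 402, 837 and 402 bases, differ from Ccl21a over those bases at 2, 5 and 2 positions. They were listed in 0 libraries. How reads that match several copies were assigned is not given in the sources used here, so the Ccl21a value is uncertain by whatever part of it comes from a copy. The other members lie at 1:190118035-190170714 (Prox1, minus strand), 7:110850607-110863239 (Lyve1, minus), 6:60924976-60989378 (Mmrn1, plus), 11:49609263-49652739 (Flt4, plus), 4:143267431-143299564 (Pdpn, minus), 5:21884454-22344702 (Reln, minus), 8:95017692-95045250 (Adgrg3, plus) and 5:21372642-21378374 (Fgl2, plus). All are protein-coding genes. Prox1os overlaps Prox1 on the opposite strand, and it had 8 UMIs against 2820 for Prox1.

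The levels of Pdpn and Ccl21a went together in single lymphatic cells, as described further on, and their upstream sequences are shown for that reason. Each is the 250 bases before the annotated start in RefSeq (GRCm38.p6), on the strand of the gene, at chr4:42773992-42774241 for Ccl21a and chr4:143299565-143299814 for Pdpn. Of the 9 members, 8 had an entry. Capitals mark matches, on either strand, to the SOX motif AACAAT, the GATA motif AGATAA, the forkhead motif GTAAACA, the ETS motif CGGAAG or the nuclear receptor half-site AGGTCA.
Ccl21a: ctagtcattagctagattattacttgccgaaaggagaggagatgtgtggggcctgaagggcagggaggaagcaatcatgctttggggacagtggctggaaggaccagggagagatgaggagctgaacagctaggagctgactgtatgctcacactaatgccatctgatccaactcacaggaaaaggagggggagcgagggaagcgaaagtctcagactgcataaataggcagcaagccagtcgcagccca
Pdpn: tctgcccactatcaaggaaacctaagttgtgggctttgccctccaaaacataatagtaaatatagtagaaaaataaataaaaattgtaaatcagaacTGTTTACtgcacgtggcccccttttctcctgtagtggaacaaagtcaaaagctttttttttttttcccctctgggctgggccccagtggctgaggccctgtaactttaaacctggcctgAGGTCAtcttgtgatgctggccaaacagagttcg

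The Pdpn window held 1 forkhead match and 1 half-site, and the Ccl21a window held 0 matches to the 5 motifs. Among 32817 windows of this length, 3.16% held the forkhead motif, 14.0% the half-site, 9.42% the SOX, 9.99% the GATA and 13.6% the ETS motif. These matches are descriptions of the letters only.

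The lymphatic rule was checked against the 5 members it does not use, Lyve1, Pdpn, Ccl21a, Adgrg3 and Fgl2, and the cells it picked fell into 2 kinds. All 4 rule genes were detected in 384 of the 539 cells, 3 in 42 and exactly 2 in 113. In cells with 4 rule genes Ccl21a stood at 26881 CPM (UMIs scaled to equal depth), Lyve1 at 2606, Fgl2 at 1635, Adgrg3 at 440 and Pdpn at 382. Cells with 3 had Ccl21a at 19508 CPM, Lyve1 at 1668 and Pdpn at 400. Cells with 2 rule genes had 329 CPM of Ccl21a, 134 of Lyve1 and 4.38 of Pdpn, and cells with 1 had 14.4, 128 and 1.95. The 329 CPM of Ccl21a came mainly from the 9 such cells of cKit+/DDR2+/CD45+ (5227 CPM), and the other libraries had 0 to 31.5 CPM. Of the 113 cells with 2 rule genes, 84 had the pair Prox1 and Flt4.

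Outside cKit+/DDR2+/CD45+, most cells with 2 rule genes carried an endocardial marker and lay among endocardial cells. Npr3 is the natriuretic peptide clearance receptor and a marker of endocardium. Over all 5 libraries it was detected in 74.3% of the cells with 2 rule genes, against 14.3% of cells with 3 and 10.2% of cells with 4. In a clustering of all cells, 95 of the 113 lay in clusters named endocardial and 7 in clusters named lymphatic, whereas 40 of 42 cells with 3 genes and 382 of 384 with 4 lay in lymphatic clusters. In cKit+/DDR2+/CD45+ 5 of the 9 cells with 2 rule genes lay in lymphatic clusters, 33.3% had an Npr3 UMI, and Lyve1 stood at 749 CPM and Mmrn1 at 587. Cluster names rest on markers alone and stand for endocardial-like, lymphatic-like and so on. The markers of lymphatic clusters include the 4 rule genes, Ccl21a, Lyve1 and Pdpn, and those of endocardial clusters include Npr3. Agreement between the rule and the lymphatic clusters was thus partly fixed in advance and tests nothing. The main lymphatic cluster held 425 cells, of which 422 met the rule. By Npr3 and by the lower Ccl21a and Pdpn, the rule as given mixes lymphatic cells with endocardial-like cells that hold Prox1 and Flt4 UMIs. Levels in cells with 3 or 4 rule genes are therefore given beside those of the whole class.

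**Figure D1:**
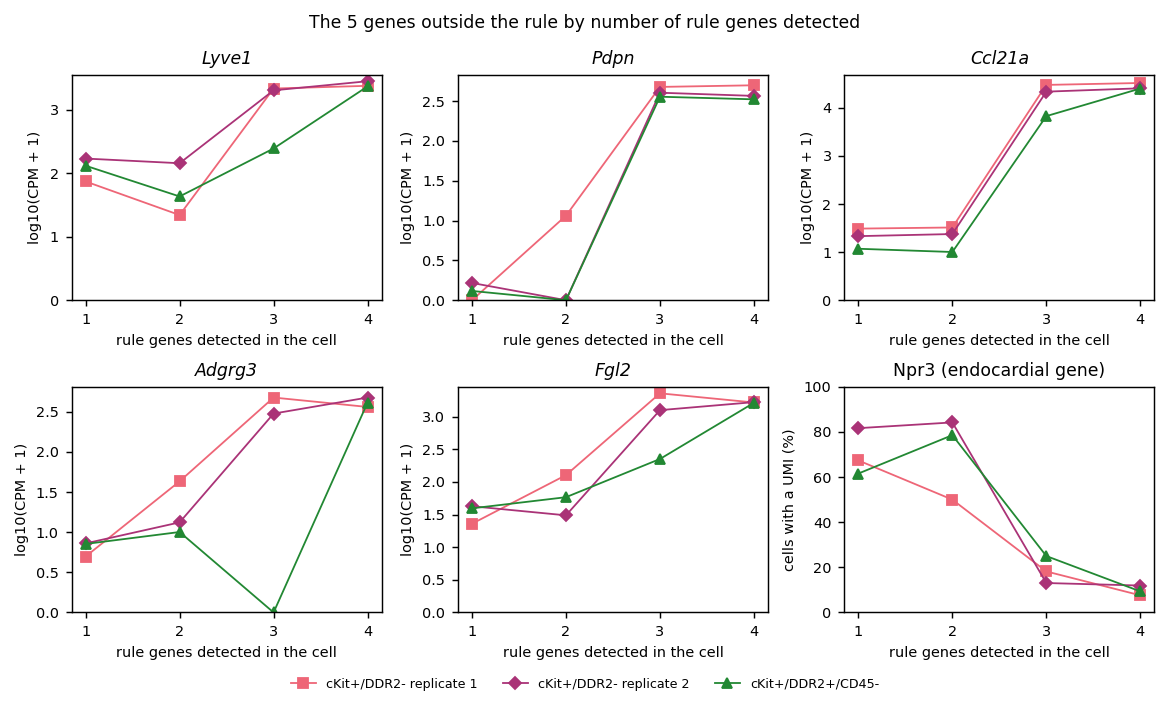
Levels as log10(CPM + 1) of the 5 members outside the rule (first 5 panels) and the percentage of cells with an Npr3 UMI (last panel), against the number of rule genes detected in a cell, for the 3 libraries with at least 50 lymphatic cells. Points are sums over the cells of a library. Pdpn and Ccl21a step up between 2 and 3 rule genes in all 3 libraries, where Npr3 falls; the cKit+/DDR2+/CD45- point at 3 rule genes rests on 4 cells.

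The share of lymphatic cells differed between libraries beyond counting error. They made up 22.9% of cKit+/DDR2- replicate 1 (100 cells, exact 95% binomial interval 19.1 to 27.2) and 9.87% of replicate 2 (298 cells, 8.83 to 11.0). The share was 8.06% in cKit+/DDR2+/CD45- (107 cells, 6.65 to 9.66), 0.570% in cKit-/DDR2+ (13 cells, 0.304 to 0.973) and 0.539% in cKit+/DDR2+/CD45+ (21 cells, 0.334 to 0.822). Xist was high in replicate 2 and cKit+/DDR2+/CD45- and not in replicate 1, so spread between replicates and Xist status cannot be told apart. The 2 replicates of 1 sort lay further apart than replicate 2 and cKit+/DDR2+/CD45-, so no order between cKit+/DDR2- and cKit+/DDR2+/CD45- can be read from them. cKit+/DDR2+/CD45+ lay below both, with intervals that did not overlap. With at least 3 rule genes the cKit-/DDR2+ library held 4 cells (0.175%) and cKit+/DDR2+/CD45+ 12 (0.308%). These are shares of sorted cells, and intervals cover counting error only.

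Prox1, the identity factor, had 477 CPM in lymphatic cells of cKit+/DDR2- replicate 1, 520 in replicate 2, 497 in cKit+/DDR2+/CD45-, 290 in cKit+/DDR2+/CD45+ (291 without the shared cells) and 234 in cKit-/DDR2+. Flt4, the VEGF-C receptor gene, had 1021, 815, 849, 1106 (1091) and 273 CPM in the same order. In cells with 3 or 4 rule genes Prox1 had 503, 636, 650, 426 and 251 CPM and Flt4 1143, 1024, 1147, 1456 and 502, the last value in each from 4 cells. Both helped to choose these cells, so the levels are a description. In other endothelial cells, from which the rule removes cells with 2 or more of its genes, Prox1 lay between 1.07 and 12.4 CPM and Flt4 between 28.3 and 44.2 CPM. Flt4 was thus present in blood and endocardial endothelium in all 5 libraries, and 21.5% of its UMIs were there, beside 76.8% in lymphatic cells.

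To test the rule genes, each was left out in turn and lymphatic cells were redefined by at least 2 of the other 3. Differences are on the log2(CPM + 10) scale, which understates those of low genes, and come from limma over sums of UMIs per class and library, with the library as a block and Benjamini-Hochberg adjustment over all genes tested. Prox1 was higher in lymphatic than in other endothelial cells by 4.62 (SE 0.20, adjusted p = 1.97e-08), where 14.7% of 8822 genes were called higher. Mmrn1 was higher by 7.54 (SE 0.17, adjusted p = 1.83e-10; 11.7% of genes), Flt4 by 4.53 (SE 0.16, adjusted p = 2.95e-09; 15.5%) and Reln by 6.07 (SE 0.16, adjusted p = 1.16e-10; 12.2%). These fits held 3 lymphatic profiles for each of Prox1, Mmrn1 and Flt4 and 4 for Reln.

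Mmrn1 and Reln, the secreted matrix glycoprotein genes, had few UMIs outside lymphatic cells, which they helped to choose. Of all Mmrn1 UMIs 98.7% lay there, and of all Reln UMIs 98.3%. Mmrn1 stood at 2810 CPM in replicate 1, 2777 in replicate 2, 2374 in cKit+/DDR2+/CD45-, 1952 (1965) in cKit+/DDR2+/CD45+ and 674 in cKit-/DDR2+. Reln followed at 913, 862, 649, 473 (449) and 68.4 CPM. With 3 or 4 rule genes Mmrn1 had 3189, 3598, 3318, 2873 and 1723 CPM and Reln 1037, 1116, 907, 783 (745) and 251. The cKit-/DDR2+ values are low for both genes, and 9 of the 13 cells there had 2 rule genes only. In other endothelial cells Mmrn1 did not pass 3.56 CPM and Reln did not pass 1.30 CPM in any library.

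Ccl21a, the chemokine gene, was the member with the widest gap. It had 28703 CPM in lymphatic cells of replicate 1, 19424 in replicate 2, 17290 in cKit+/DDR2+/CD45- and 19266 in cKit+/DDR2+/CD45+ (19319 without the shared cells). In cKit-/DDR2+ its 159 UMIs (1553 CPM) all came from 1 cell of 13. With 3 or 4 rule genes it had 32651, 25218, 24195, 28736 and 5706 CPM in the same order. Other endothelial cells had 82.0, 36.0, 11.8, 3.78 (1.33 without the shared cells, from 1 UMI) and 0.763 CPM in the same order of libraries, so the classes did not overlap. The difference was 9.29 (SE 0.25, limma adjusted p = 1.27e-10), with 4 lymphatic and 5 other endothelial profiles of at least 20 cells each; 12.2% of the 8818 genes tested were called higher here and 8.4% lower. All 5 members outside the rule were called higher, with a median difference of 4.77 against 0.06 over all genes.

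Lyve1, the hyaluronan receptor gene, had 2099 CPM in lymphatic cells of replicate 1, 2174 in replicate 2, 1611 in cKit+/DDR2+/CD45- and 1573 (1546) in cKit+/DDR2+/CD45+, but 166 in cKit-/DDR2+. With 3 or 4 rule genes it had 2386, 2780, 2238, 2130 and 467 CPM. Other endothelial cells had 51.2, 125, 97.0, 93.2 (92.9) and 8.08 CPM. The difference was 4.47 (SE 0.42, adjusted p = 7.20e-06), and the SE was the largest of the 5. Without the shared cells it was 4.68, and with at least 3 rule genes as well it was 5.03. The values of cKit-/DDR2+, with 13 cells, are outside the fit.

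Pdpn, the podoplanin gene, had 437 CPM in lymphatic cells of replicate 1, 284 in replicate 2, 238 in cKit+/DDR2+/CD45-, 225 (224) in cKit+/DDR2+/CD45+ and 78.1 in cKit-/DDR2+, against at most 2.29 CPM in other endothelial cells of any library. The difference was 4.77 (SE 0.17, adjusted p = 1.45e-09). Adgrg3, the adhesion receptor gene, had 331, 359, 280, 384 (370) and 39.1 CPM against 1.98 to 7.56 CPM, a difference of 4.49 (SE 0.13, adjusted p = 1.27e-10). Fgl2, the fibrinogen-like gene, had 1502, 1267, 1124, 728 (709) and 361 CPM against 5.19 to 41.9 CPM, a difference of 5.02 (SE 0.24, adjusted p = 1.62e-08). For these 3 genes, too, every lymphatic value lay above every value of other endothelial cells. With 3 or 4 rule genes Pdpn had 496, 368, 333, 366.5 and 179 CPM, Adgrg3 370, 462, 388, 594 (574) and 144, and Fgl2 1691, 1636, 1550, 1010.4 and 1220.1. Without the shared cells the differences were 4.91 for Pdpn, 4.48 for Adgrg3, 5.20 for Fgl2 and 8.98 for Ccl21a, then with 3 lymphatic profiles, since the 15 cells left in cKit+/DDR2+/CD45+ were too few for a profile.

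**Figure D2:**
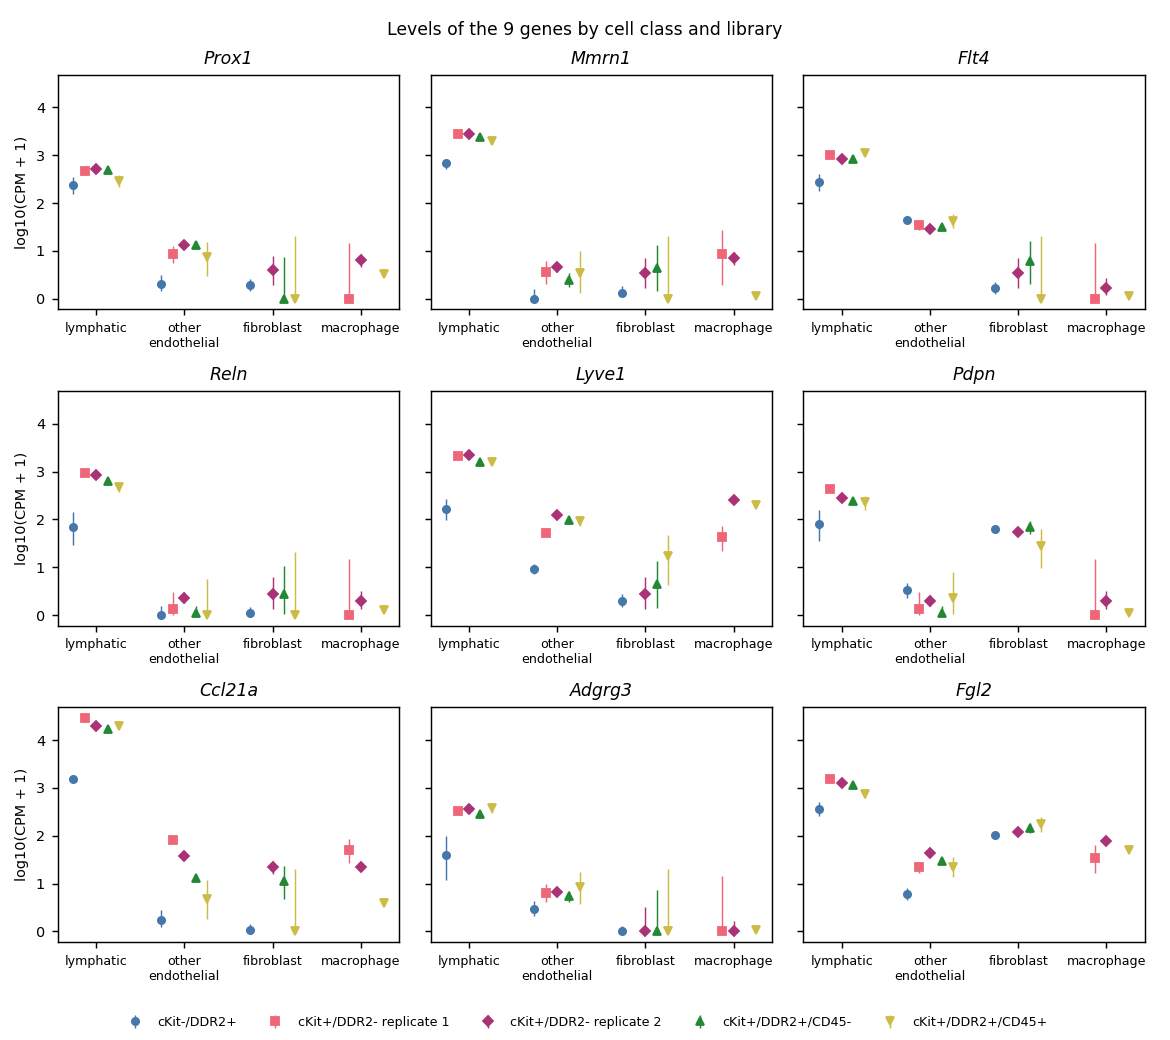
Level of each member as log10(CPM + 1) in the 4 cell classes (x axis) of each library with at least 10 cells of the class; bars are exact 95% Poisson intervals and cover counting error only. Lymphatic values lie above the others for all 9 genes in the 4 libraries with cKit+ cells, Lyve1 stands at 257 and 200 CPM in macrophages of replicate 2 and cKit+/DDR2+/CD45+, and Pdpn and Fgl2 are raised in fibroblasts.

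Outside endothelium the members divided by cell class. Fibroblasts carried Pdpn and Fgl2. Pdpn stood at 61.7 CPM in the 859 fibroblasts of cKit-/DDR2+, 54.5 in the 149 of replicate 2 and 67.3 in the 42 of cKit+/DDR2+/CD45-, and 49.7%, 41.6% and 47.6% of these cells had a Pdpn UMI. These values lay close together and below the lymphatic values of the other sorts, but within the interval of the lymphatic cells of cKit-/DDR2+ (78.1 CPM from 8 UMIs, 33.7 to 154). Fgl2 stood at 100.4, 118 and 145 CPM in the same fibroblasts. Against other endothelial cells Pdpn was higher in fibroblasts by 2.71 (SE 0.19, limma adjusted p = 1.68e-07) and Fgl2 by 2.05 (SE 0.27, adjusted p = 4.67e-05), where 15.9% of genes were called higher and 19.6% lower. Lyve1 was lower by 2.48 (SE 0.47, adjusted p = 9.79e-04) and had between 0.978 and 3.45 CPM in these fibroblasts.

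Adgrg3 had 0 UMIs in the fibroblasts of all 5 libraries. Its difference of -0.49 passed the threshold (adjusted p = 0.0157), but not without replicate 2 (-0.38, adjusted p = 0.236) or without cKit+/DDR2+/CD45- (-0.49, adjusted p = 0.0866). Ccl21a did not pass it (-0.24, adjusted p = 0.558). Of the rule genes, whose level in other endothelial cells the rule partly sets, Flt4 was lower in fibroblasts by 1.79 and Prox1 by 0.69 (adjusted p = 0.0215), the latter not without replicate 2 (adjusted p = 0.174) or without cKit+/DDR2+/CD45- (adjusted p = 0.251). Mmrn1 and Reln differed by 0.01 and 0.09 and did not pass.

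Where each gene's UMIs lay depended on the library. In cKit-/DDR2+, 91.0% of Pdpn UMIs and 82.9% of Fgl2 UMIs were in fibroblasts, and 82.9% of Flt4 UMIs in other endothelial cells. In replicate 1, 98.9% of Pdpn, 93.9% of Fgl2 and 91.1% of Lyve1 UMIs were in lymphatic cells. In cKit+/DDR2+/CD45+, 94.4% of Lyve1, 90.7% of Fgl2 and 61.1% of Prox1 UMIs were in macrophages. Macrophages made up 87.6% of its cells and held 42462799 of its 44847778 UMIs, so none of these shares stood above that of all UMIs. Fibroblasts were 37.7% and other endothelial cells 53.6% of the cells of cKit-/DDR2+, and lymphatic cells 22.9% of those of replicate 1. The level of these genes summed over a library thus reports different cells in different sorts.

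**Figure D3:**
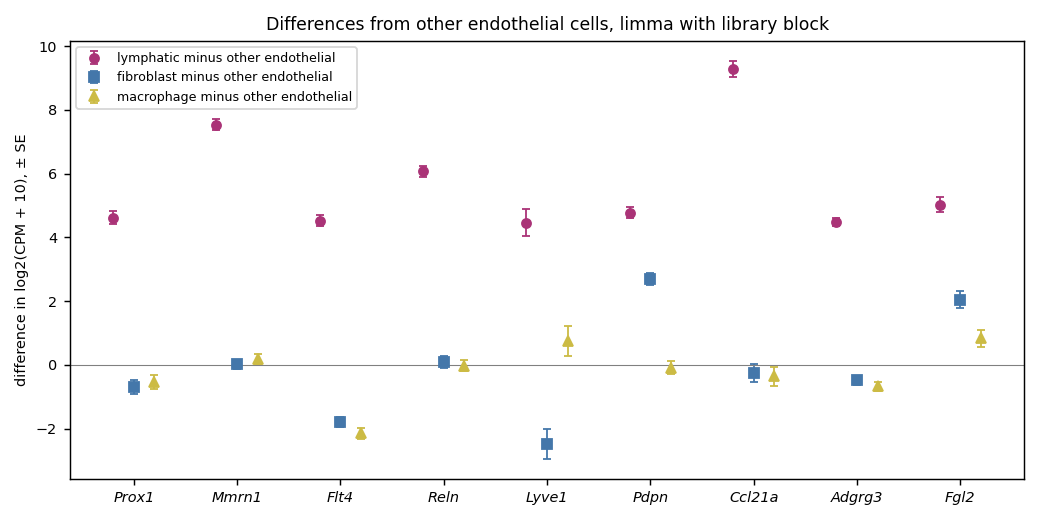
Difference in log2(CPM + 10) from other endothelial cells (y axis, bars are SE) for each member in lymphatic cells, fibroblasts and macrophages, from the limma fit with library block; for Prox1, Mmrn1, Flt4 and Reln the lymphatic point is from the fit with that gene left out of the rule. All 9 lymphatic points lie above 4, while Pdpn and Fgl2 are the members above 2 in fibroblasts.

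Macrophages were, by number of UMIs, the largest source of Lyve1. They held 44.6% of all Lyve1 UMIs, lymphatic cells 40.8% and other endothelial cells 13.4%. Of all cells, macrophages made up 36.6%, lymphatic cells 4.92% and other endothelial cells 40.0%. The macrophage share of Lyve1 UMIs thus lay near their share of cells, unlike that of lymphatic cells. Lyve1 stood at 200 CPM in the 3416 macrophages of cKit+/DDR2+/CD45+, at 257 in the 565 of replicate 2 and at 40.9 in the 23 of replicate 1. After thinning each cell to 2000 UMIs, 22.7% of cKit+/DDR2+/CD45+ macrophages (exact interval 21.3 to 24.1), 19.7% in replicate 2 (16.5 to 23.3) and 1 of 23 in replicate 1 (4.35%) had a Lyve1 UMI; at full depth the first 2 shares were 44.6% and 31.5%. Fibroblasts, thinned alike, had 0 of 147 in replicate 2, which allows a share of cells with a UMI of up to 2.04%.

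Against other endothelial cells the macrophage difference in Lyve1 was 0.76 (SE 0.47, limma adjusted p = 0.199) and did not pass the threshold. It was 1.30 without replicate 1 (adjusted p = 0.0498) and 0.37 without replicate 2. Fgl2 was higher in macrophages by 0.84 (SE 0.27, adjusted p = 0.0198), where 16.8% of genes were called higher and 33.2% lower, but it did not pass without replicate 2 (0.70, adjusted p = 0.0975) or without cKit+/DDR2+/CD45+ (0.76, adjusted p = 0.0769). Adgrg3 was lower by 0.67 (adjusted p = 0.00146), but not past the threshold at a pseudocount of 50 CPM (adjusted p = 0.0679). Pdpn (-0.09) and Ccl21a (-0.36) did not pass, the latter passing with at least 3 rule genes (-0.79, adjusted p = 0.0406). Of the rule genes, Flt4 was lower by 2.15, and Mmrn1 (0.17) and Reln (-0.02) did not pass. Prox1 (-0.53, adjusted p = 0.0518) did not pass either, but was called lower under several alternatives, among them without the shared cells (-0.54, adjusted p = 0.0323), without cKit-/DDR2+ (-0.60, adjusted p = 0.0140) and without cKit+/DDR2+/CD45+ (-0.63, adjusted p = 0.0445). Macrophages of cKit+/DDR2+/CD45+ nevertheless held 99 Prox1 UMIs, at 2.33 CPM and in 2.58% of cells, and those of replicate 2 held 32 (5.31 CPM).

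Macrophages with a Lyve1 UMI differed from those without in the genes of resident macrophages. Cells were divided by this 1 gene, so the values are a description without test. The 7 resident genes of a list (Folr2, Timd4, Cd163, Mrc1, F13a1, Cbr2 and Gas6) were all higher beside Lyve1 in both replicate 2 (178 cells with a Lyve1 UMI, 387 without) and cKit+/DDR2+/CD45+ (1525 and 1891). Folr2, the folate receptor of resident macrophages, had 591 against 59.8 CPM in replicate 2 and 691 against 157 in cKit+/DDR2+/CD45+. Timd4, which binds phosphatidylserine on dying cells, had 124 against 24.9 and 173 against 47.4 CPM, and F13a1, a coagulation factor subunit, 1545 against 216 and 1352 against 305 CPM.

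Genes of monocyte-derived macrophages went the other way in the same cells. Ccr2, the receptor for monocyte recruitment, had 44.5 CPM with and 172 without a Lyve1 UMI in replicate 2, and 58.0 and 125 in cKit+/DDR2+/CD45+. H2-Aa, a chain of MHC class II, had 1231 against 6633 and 2667 against 7341 CPM. Fgl2 was also lower beside Lyve1, with 34.2 against 99.8 CPM and 39.6 against 57.7. Median depth was higher in the Lyve1 cells, at 11362.5 against 9171 UMIs in replicate 2 and 11824 against 10904 in cKit+/DDR2+/CD45+, and its part in the values was not tested.

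**Figure D4:**
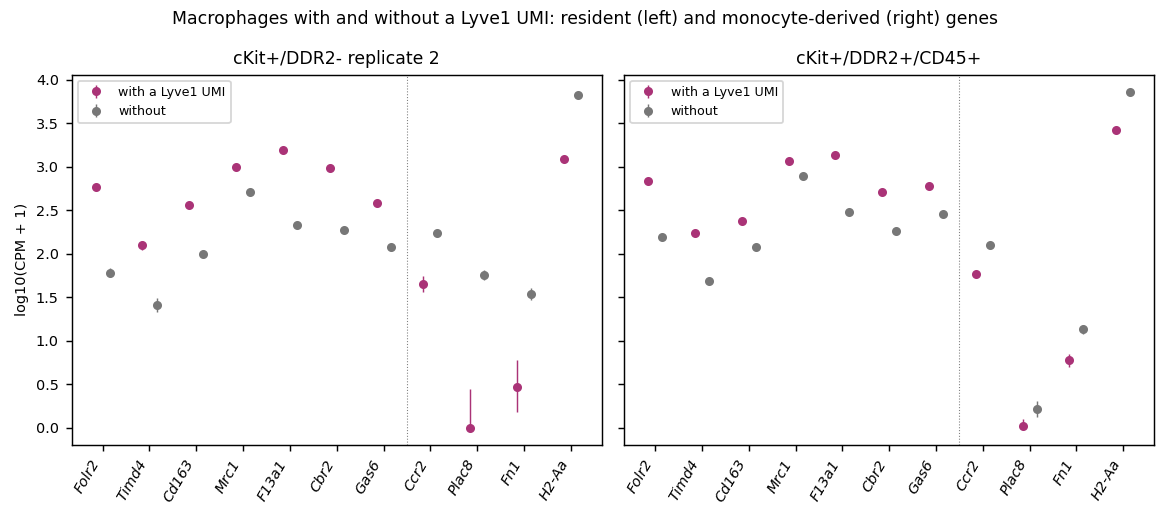
Level as log10(CPM + 1) of 7 resident (left of the dotted line) and 4 monocyte-derived macrophage genes in macrophages with and without a Lyve1 UMI, in the 2 libraries with over 100 macrophages; bars are exact 95% Poisson intervals. Every resident gene is higher, and Ccr2, Plac8, Fn1 and H2-Aa are lower, in the cells with a Lyve1 UMI; Ly6c2, near 0 in both, is not drawn.

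By cluster, Lyve1 also marked part of the endocardium. Clusters were built on all variable genes, members included, so these values describe them and test nothing. In the endocardial cluster led by Igfbp5 (664 cells) Lyve1 stood at 367 CPM, with 199 to 392 CPM in the 5 libraries. In the endocardial cluster led by Nrg1 (1538 cells) it stood at 45.9 CPM, with 20.5 to 95.2 CPM. Every library's value in the former lay above every value in the latter. Fgl2 had the opposite order, at 13.9 CPM in the Igfbp5 cluster and 54.4 in the Nrg1 cluster. The 4 clusters named blood endothelial had 1.27 to 15.1 CPM of Lyve1. Among macrophages the cluster led by Fcna had 576 CPM of Lyve1 and the one led by Mmp12 had 12.1.

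Prox1 was found in endocardium as well. It stood at 18.0 CPM in the Nrg1 cluster and 13.7 in the Igfbp5 cluster, against at most 1.27 in the blood endothelial clusters. A small endocardial cluster of 51 cells, led by Hapln1, a hyaluronan link protein gene, had 219 CPM of Prox1, and 52.9% of its cells had a Prox1 UMI. The same cells had 0 UMIs of Mmrn1, 3.77 CPM of Ccl21a, 32.1 of Lyve1 and 28.3 of Adgrg3, far below the main lymphatic cluster's 3445, 26557, 2550 and 430 CPM. This cluster held 15 of the 113 cells with 2 rule genes. Flt4 spread more evenly, at 25.3 to 60.03 CPM over the endocardial clusters led by Nrg1, Igfbp5 and Hapln1 and the 4 blood endothelial clusters, and 32.0 in pericytes.

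Fgl2 had sources in several classes. Beside lymphatic cells (1624 CPM in the main cluster) it stood at 267 CPM in the dendritic cluster, 378 in the T or NK cluster of 25 cells, 125 in the fibroblast cluster led by Penk and 56.2 in that led by Sema3c. Reln, near 0 elsewhere, had 68.2 CPM in the 13 cells of the Schwann cluster, from 6 UMIs.

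**Figure D5:**
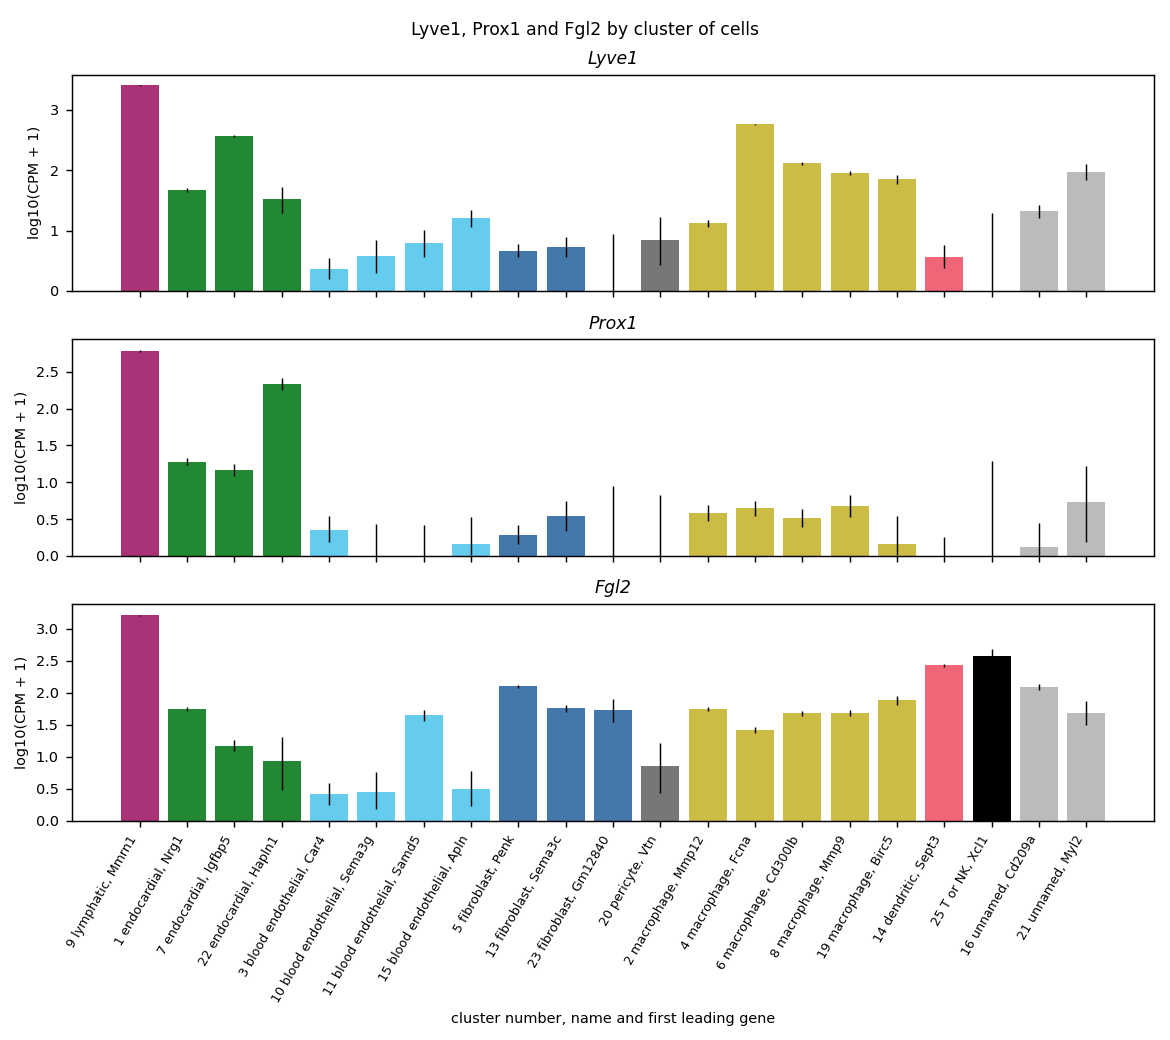
Level as log10(CPM + 1) of Lyve1, Prox1 and Fgl2 in each cluster with at least 20 cells and a median of at least 2000 UMIs, without cells of shared barcodes; bars start at 0, colours mark the cluster's name, and black lines are exact 95% Poisson intervals. Lyve1 is high in the lymphatic cluster (2550 CPM), macrophage cluster 4 (576) and endocardial cluster 7 (367), Prox1 in the lymphatic cluster and endocardial cluster 22, and Fgl2 in lymphatic, T or NK and dendritic clusters.

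Ccl21a UMIs outside lymphatic cells followed the library more than the cell class. At full depth 28.3% of non-lymphatic cells in replicate 1 had a Ccl21a UMI, 18.3% in replicate 2, 9.92% in cKit+/DDR2+/CD45-, 3.56% in cKit+/DDR2+/CD45+ and 0.309% in cKit-/DDR2+. Thinned to 2000 UMIs, the shares were 7.17%, 4.29%, 2.86%, 0.567% and 0.141%. Most such cells had 1 UMI, for example 430 of 498 in replicate 2 and 112 of 121 in cKit+/DDR2+/CD45-, whereas lymphatic cells with the gene had medians of 176 and 254. The order of the libraries is that of their lymphatic shares for the first 3, and cKit-/DDR2+ and cKit+/DDR2+/CD45+ come last in both.

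In the 2 cKit+/DDR2- libraries the shares of cells with a Ccl21a UMI had overlapping intervals between classes, while the levels differed in replicate 2. In replicate 2, thinned alike, 4.16% of other endothelial cells (3.24 to 5.25), 6.12% of fibroblasts (2.84 to 11.3) and 3.59% of macrophages (2.21 to 5.49) had a Ccl21a UMI, with overlapping intervals. Median depths at full counts were 9227, 10750 and 9770 UMIs. In replicate 1 the shares were 6.36% of other endothelial cells (3.81 to 9.87) and 17.4% of macrophages (4.95 to 38.8, from 23 cells). The level in replicate 2 was 36.0 CPM in other endothelial cells (33.0 to 39.3), 21.2 in macrophages (17.7 to 25.3) and 20.98 in fibroblasts (14.6 to 29.2). Other endothelial cells thus stood above both beyond counting error. In replicate 1 it was 82.0 CPM (71.7 to 93.4) against 48.3 in macrophages (25.7 to 82.6), with overlapping intervals. Among non-lymphatic cells of all classes, 3 in replicate 1 and 3 in replicate 2 had 10 or more Ccl21a UMIs, which weigh on a level more than on a share. Neither the shares nor the levels are read as expression, and the origin of these UMIs was not tested.

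The counts of the other members outside lymphatic cells were set against those of Ccl21a. In replicate 2, lymphatic cells held 8.94 Ccl21a UMIs per Lyve1 UMI and 6.99 per Mmrn1 UMI. At these ratios the 128 Ccl21a UMIs of macrophages would go with 14.3 UMIs of Lyve1, and 1546 were counted, 108 times as many (103 to 113, an interval for the counting error of Lyve1 alone, as for the factors below). In cKit+/DDR2+/CD45+ macrophages the factor was 861. For other endothelial Lyve1 it was 8.53 in replicate 1, 30.9 in replicate 2 and 87.9 in cKit+/DDR2+/CD45-, for other endothelial Flt4 11.3, 18.7 and 52.9, and for fibroblast Pdpn 178 in replicate 2 and 473 in cKit+/DDR2+/CD45-. The ratio covers RNA of lymphatic origin alone, and RNA from other sources of these genes was not tested.

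Mmrn1 and Reln behaved differently. In fibroblasts of replicate 2, 4 Mmrn1 UMIs were counted where the ratio gives 5.005 (factor 0.80, 0.22 to 2.05), and 3 of Lyve1 where it gives 3.92 (0.77, 0.16 to 2.24). In macrophages of that library the factor was 1.97 for Mmrn1 (1.38 to 2.72) and 1.06 for Reln (0.39 to 2.30). In other endothelial cells, where the rule limits both genes, the factor for Mmrn1 was 0.32, 0.69 and 0.89 in replicate 1, replicate 2 and cKit+/DDR2+/CD45-. In cKit+/DDR2+/CD45+ macrophages it was 0.49 for Mmrn1 and 4.37 for Reln (2.33 to 7.48, from 13 UMIs). The macrophage values of Mmrn1 in replicate 2 and of Reln in cKit+/DDR2+/CD45+ thus lay above the Ccl21a ratio beyond counting error, and the others named here did not. For Prox1 the factor was 12.5 in other endothelial cells and 9.34 in macrophages of replicate 2, and 54.4 in macrophages of cKit+/DDR2+/CD45+ (44.2 to 66.2).

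Between the 3 libraries with at least 50 lymphatic cells, the members' levels in those cells stayed within 2-fold of each other, as did those of most genes. The members did not stand apart from genes at large in this, and Prox1, Mmrn1, Flt4 and Reln helped to choose the cells. In no pair of libraries was any of the 9 members at least 2-fold apart, where 3.72% of genes with at least 50 CPM were so between cKit+/DDR2+/CD45- and replicate 1, 0.994% between cKit+/DDR2+/CD45- and replicate 2, and 2.12% between the replicates. The largest ratios, on the log2(CPM + 10) scale, were those of Pdpn (-0.85, cKit+/DDR2+/CD45- minus replicate 1) and Ccl21a (-0.73). Between the replicates of 1 sort they were -0.61 and -0.56 (replicate 2 minus replicate 1), so most of that distance lay between replicates. The replicates differ in Xist as well, and its part in this distance cannot be told apart. With at least 3 rule genes the first 2 ratios were -0.56 and -0.43. In the whole class Prox1, Mmrn1, Reln, Lyve1 and Adgrg3 differed by no more than 0.12 either way between the replicates. With 3 or 4 rule genes these were further apart. Replicates 1 and 2 then had 503 and 636 CPM of Prox1, 3189 and 3598 of Mmrn1 and 1037 and 1116 of Reln. Lyve1 had 2386 and 2780 CPM, and Adgrg3 370 and 462.

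Within single lymphatic cells most of the 9 genes were detected together. The cells were chosen by detecting at least 3 of the 4 rule genes, so joint detection of those was fixed in advance. Of the 410 cells with at least 3 rule genes in these libraries, 268 (65.4%) had UMIs of all 9 members, 104 of 8, 27 of 7 and 11 of 6 or fewer. The median cell had 253 Ccl21a UMIs per 10000, 33.1 of Mmrn1, 24.3 of Lyve1, 14.0 of Fgl2, 10.3 of Flt4, 9.36 of Reln, 5.18 of Prox1, 3.61 of Adgrg3 and 3.24 of Pdpn. Of the members outside the rule, Ccl21a was detected in 97.8% of these cells, Lyve1 in 96.1% and Fgl2 in 95.6%. Pdpn and Adgrg3, each with a median of 3 UMIs a cell, were detected in 87.6% and 83.2% of these cells, the lowest shares among the 9.

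The members went together from cell to cell in 2 groups, given here as a description, with Spearman coefficients as their range over the 3 libraries (90, 241 and 79 cells that share library and depth). Mmrn1, Reln and Lyve1 formed the first: 0.53 to 0.65 for Mmrn1 with Reln, 0.42 to 0.60 for Mmrn1 with Lyve1 and 0.36 to 0.59 for Reln with Lyve1. Fgl2 followed these 3 at 0.28 to 0.49. Pdpn and Ccl21a formed the second, at 0.33 to 0.55, with Flt4 at 0.31 to 0.42 beside Pdpn and 0.29 to 0.40 beside Ccl21a. Adgrg3 stood at 0.30 to 0.34 with Reln and 0.26 to 0.36 with Lyve1. Between the groups the coefficients were lower, from -0.06 to 0.04 for Pdpn with Fgl2 and -0.03 to 0.14 for Lyve1 with Pdpn up to 0.10 to 0.28 for Mmrn1 with Ccl21a and 0.20 to 0.27 for Mmrn1 with Flt4. Prox1, at few UMIs a cell, reached its highest value with Fgl2, at 0.08 to 0.25.

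Other genes of lymphatic biology, from a list of 54, were read in the same comparison. Of 42 that passed the filter on low values, 24 were called higher in lymphatic than in other endothelial cells, 3 lower and 15 were not called, with a median difference of 0.83 against 0.06 over all genes, of which 12.2% were called higher and 8.4% lower. In the growth factor axis the co-receptor gene Nrp2 was higher (1.56, limma adjusted p = 5.04e-04), the ligand gene Vegfc lower (-1.21, adjusted p = 0.00294), and the VEGFR-2 gene Kdr was not called (0.23). Among transcription factors 4 of 9 were higher and 1 lower. Maf, a factor that macrophages carry too, had 953 CPM against 13.7 (5.33, adjusted p = 1.62e-08) and Nr2f2, the COUP-TFII gene upstream of Prox1, was higher by 1.46, while Sox18 was not called (0.34). Gata2 was lower by 1.04 (adjusted p = 8.00e-04).

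Among valve and junction genes 5 of 7 were higher and 0 lower. Cldn5, a tight junction gene, was higher by 1.59 (adjusted p = 0.00519) and the valve integrin gene Itga9 by 2.60, and Ephb4 was not called (0.33). Of 4 chemokine and scavenging receptor genes tested, Stab1 was higher by 1.99 and Ackr2 by 1.89, Ackr3 was not called (0.40), and Cxcl12 was lower by 2.58 (adjusted p = 0.00240), at 76.0 against 873 CPM. In the angiopoietin and adrenomedullin axes Angpt2 was the 1 gene of 7 called, higher by 1.55, and Ramp2 (0.10), Calcrl (0.18) and S1pr1 (0.23) were not. Of 12 further marker genes 11 were higher, among them Cp (2.11), Cd9 (0.82) and Cavin2 (0.52).

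Beyond the members and this list, the 8 genes with the largest higher difference and at least 50 CPM in every lymphatic profile were Lcn2 (5.18), Pard6g (4.65), Abi3bp (4.56), Adamtsl1 (4.27), Fndc1 (4.21), Pcsk6 (4.20), Tc2n (4.09) and Dtx1 (4.0). Lcn2, which encodes lipocalin 2, had a mean of 548 CPM in lymphatic cells and 4.47 in other endothelial cells. Abi3bp, Fndc1 and Pcsk6 were shared with fibroblasts, where they had 247, 114 and 647 CPM against 501, 195 and 269 in lymphatic cells.

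Likeness was read over 15 class profiles, which share libraries and are dominated by the lymphatic step, so Pearson's r is given without a test. Closest to Prox1 were Adgrg3 (0.99), Lcn2 (0.99) and Il7 (0.99), and to Ccl21a Mmrn1 (0.99), Flrt3 (0.98) and Lcn2 (0.98). Pdpn, with its fibroblast share, was closest to Rtkn (0.99) and Efcc1 (0.99) among those named here, Fgl2 to Ston2 (0.97) and Galnt1 (0.95), and Lyve1, with its macrophage and endocardial share, to Tcn2 (0.95), Ralgps2 (0.93) and Gprc5c (0.93).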

How the data were processed

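RNA of 5 droplet libraries was read as the values the authors deposited: in each cell UMIs are scaled to 10000, 1 is added and the natural log taken. The submitters' processing notes name the mm10 build, Cell Ranger (version not given in the sources used here) and Seurat 4.0.4; filtering of free RNA and doublets is not given. UMIs came back whole within 0.01 for 100% of values everywhere, and genes that a table leaves out were taken as 0 there. Other endothelial cells, fibroblasts and macrophages needed at least 3 of 7, 6 and 6 markers; cells meeting 2 rules were left out, and no doublet caller was run. Clusters (scanpy 1.11.5, 2000 variable genes, 30 components, 15 neighbours, Leiden resolution 1.0) were named by at least 3 markers. UMIs were summed per class and library with at least 20 cells (15 profiles), scaled to CPM, and 8818 genes with a mean of at least 10 CPM were tested with limma 3.58.1 (R 4.3.3) on log2(CPM + 10) with a library block, two-sided, at an adjusted p of 0.05. The script was tested on simulated data. Depth per library was 4047326 to 44847778 UMIs. Alternatives covered pseudocount, filter, class rules, block, thinning, shared barcodes and each library left out.

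The members and lists were chosen with earlier results of these data known. Named genes were the members, up to 3 of each group of the pathway list by lymphatic CPM (Ackr2 and Angpt2 were added after their values were seen), the 8 largest higher differences with at least 50 CPM in every lymphatic profile, and the 3 most alike genes of 5 members, of which 1 is not reported here. Cluster 22, the Schwann cluster, the macrophage Prox1 UMIs and the printed upstream windows were picked after their values were seen.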

Additional observations from a re-analysis of the deposited data

Results flagged for a closer look

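Members were also detected in the cells kept out of the comparisons, above the level that 3 counts would give (0.632 CPM over the 584 unclassed cells left without shared barcodes, 0.835 CPM over the 262 cells that met more than 1 class rule). In the unclassed cells Fgl2 stood at 229 CPM, and 85.2% of its UMIs came from 205 cells of the dendritic cluster, where it had 261 CPM. Ccl21a stood at 44.9 CPM in unclassed cells, Lyve1 at 8.01, Mmrn1 at 5.69, Flt4 and Reln both at 3.16, Adgrg3 at 1.69, Prox1 at 1.48 and Pdpn at 0.843. In the cells of more than 1 class Fgl2 stood at 71.3 CPM, Lyve1 at 54.0, Pdpn at 17.5, Flt4 at 13.9, Ccl21a at 7.80 and Prox1 at 5.29.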

How the results depend on the processing

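The 5 members outside the rule were called higher in lymphatic cells under every alternative run. For these members the alternative by cluster is a description only. Ccl21a, Lyve1 and Pdpn helped to name the lymphatic clusters, which were built with members among the variable genes. The 4 rule genes were called higher in 20 of 20 fits with that gene left out of the rule, and no result changed sign past the threshold. The count of genes higher in lymphatic cells was 722 to 1109 with 1 library left out (1073 with all), and that in fibroblasts 930 to 1525 (1399 with all), lowest without cKit+/DDR2+/CD45-. Lyve1 in macrophages was 1.06 with the 2 high-Xist libraries alone (adjusted p = 0.00526, with a macrophage profile in 1 of the 2, assumed to vary like the other classes) and 0.37 to 1.30 with 1 library left out. Fgl2 in macrophages fell short at a pseudocount of 50 CPM (0.45), with no filter on low values (0.84, adjusted p = 0.0695), by cluster (0.52) and as a mean over cells (0.59), and was 0.70 to 1.06 with 1 library left out. The lymphatic percentages with 3 rule genes, with 2 UMIs a gene, thinned to 2000 UMIs and by cluster were 0.175, 0.219, 0.234 and 0.263 in cKit-/DDR2+, 7.98, 8.05, 6.76 and 8.05 in replicate 2, and 5.95, 6.03, 5.71 and 5.95 in cKit+/DDR2+/CD45-. Replicate 1 had 16.7 thinned, and cKit+/DDR2+/CD45+ 0.308 with 3 genes, 0.282 with 2 UMIs a gene, 0.282 thinned and 0.282 without cells of other classes. Ccl21a shares outside lymphatic cells were 28.3, 18.3, 9.92 and 3.56% at full depth and 3.33, 1.46, 1.54 and 0.335% thinned to 1000 UMIs in replicate 1, replicate 2, cKit+/DDR2+/CD45- and cKit+/DDR2+/CD45+. Lyve1 shares of macrophages in replicate 2 and cKit+/DDR2+/CD45+ were 31.5 and 44.6% at full depth and 12.3 and 13.6% thinned to 1000. The alternatives on shared barcodes and Xist were chosen after seeing the data. No paired analysis was possible because the groups share fewer than 2 replicate numbers. The causes of these shifts were not tested.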
